A study of Mus musculus with 4 samples.

Results

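The genes described here carry fatty acids into and through endothelial cells: 10 symbols of the 23997 in the expression table, namely the fatty acid binding proteins Fabp4 and Fabp5, the scavenger receptor Cd36, the capillary lipolysis genes Gpihbp1, Lpl and Angptl4, the nuclear receptor Pparg, and Acsl4, Cpt1a and Ucp2, which act on fatty acids or their products inside the cell. All 10 were found by symbol. They were chosen by function, with earlier results of the same table known, so their own differences are given as a description and no test is attached to them. Total RNA was sequenced from endothelial cells of the lungs of C57BL/6 mice, kept in EBM-2 medium and 10% serum. Every culture received an siRNA for 48 h, either a control or one that targets GR, the glucocorticoid receptor encoded by Nr3c1, which is a steroid-activated transcription factor. Dexamethasone (DEX), a synthetic ligand of GR, was added at 100 nM for 18 h to one culture condition of each siRNA, which gave 4 conditions: control siRNA, control siRNA + DEX, GR siRNA and GR siRNA + DEX. The cells had no genetic change named in the labels. The number of animals, whether the cells were primary or a line, their isolation and the siRNA sequences were not given in the sources used here.

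Blood lipids reach tissues across the capillary wall. Lipoprotein lipase, the product of Lpl, is made mainly by muscle cells, adipocytes and macrophages; GPIHBP1 on the endothelial surface binds the enzyme, moves it to the vessel lumen and holds it there, and ANGPTL4 inactivates it. The freed fatty acids enter with the help of CD36 and membrane transport proteins, are bound in the cytosol by FABP4 and FABP5, are joined to coenzyme A by acyl-CoA synthetases such as ACSL4, and can be passed into mitochondria by CPT1A for oxidation. PPAR gamma, encoded by Pparg, is a fatty acid sensor that switches on many of these genes, and UCP2 is a carrier of the inner mitochondrial membrane. In capillaries of heart, muscle and fat this machinery is prominent, and Gpihbp1 and Cd36 are also known markers of lung capillary endothelium. Glucocorticoids act on lipid handling in liver and fat, where Angptl4 is a known GR target.

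The values are FPKM, fragments scaled to transcript length and to library depth, with 1 column per condition. The series states that each condition was done in triplicate, but no replicate values could be used here, so no value below has an SD and no difference has a p-value. Differences were taken on the scale log2(FPKM + 1), and a gene was counted as higher or lower from 1.5-fold on that scale, which is 0.585. Endothelial markers were abundant in every column, as the labels say: Pecam1 ran from 275 to 282 FPKM and Cdh5 from 384 to 436 FPKM. Of the 9 listed endothelial markers, 8 were lower with GR siRNA without DEX and 5 with DEX, 1 of them past 1.5-fold. That marker was Cldn5, a tight junction gene, at 493 and 525 FPKM in the control siRNA columns and 368 and 332 FPKM in the GR siRNA columns (log2 differences −0.42 and −0.66), and Egfl7 was 521 and 516 FPKM against 424 and 410.3 FPKM. The median difference of the 9 markers was −0.07 without DEX and −0.001 with DEX, against −0.01 for all genes in each case. With equal column sums the median of all genes moved to 0.05 without DEX, so the sign of a small difference depends on the scaling. Whether the differences of Cldn5 and Egfl7 bear on the values of Gpihbp1 and Ucp2 was not tested. Nr3c1, the siRNA target, was 14.4 and 14.3 FPKM in the 2 control siRNA columns (without and with DEX) and 5.45 and 5.32 FPKM in the GR siRNA columns. Depth was read from the smallest steps in the values. Among genes with 1 annotated transcript of at least 1500 nt, between 80.1% and 85.7% of the 356 to 422 low values in a column lay within 0.15 of a whole multiple of 1 fragment, against 30% for evenly spread values. Such steps are what a single or a merged library gives, and a mean of separately scaled libraries need not, so whether a column is 1 replicate or several pooled is not known. The depth of the columns relative to GR siRNA came out at 0.672 for control siRNA, 0.962 for control siRNA + DEX and 0.815 for GR siRNA + DEX. These steps give an estimated number of fragments behind each gene and, from it, 95% counting intervals of the ratios (exact binomial). The intervals cover counting error only, not the spread between cultures, and they rest on the annotated transcript length.

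With GR siRNA, in both DEX states, Fabp5, Angptl4 and Lpl were higher, Gpihbp1 and Ucp2 were lower, and Fabp4, Pparg, Acsl4 and Cpt1a stayed inside 1.5-fold. Cd36 was close to 0 in every column. That is 3 of 9 measured genes higher without DEX, where 2.36% of all 11325 genes of at least 1 FPKM were higher, and 2 of 9 lower, where 2.54% of all were lower. With DEX in both arms the counts were again 3 of 9 higher, against 2.36% of 11344 genes, and 2 of 9 lower, against 2.62%. The 5 genes were the same in the 2 comparisons, which share no column. Over all 11224 genes measured in both states, 1.4% were higher in both and 1.64% were lower in both. The filter of 1 FPKM left out Cd36, and with DEX in both arms Lpl passed it only through the GR siRNA + DEX column. The median difference of the 9 genes was 0.27 without DEX and 0.28 with DEX, while the median of all genes was −0.01 in each case. In bulk RNA of this kind, a change in the share of cells that express a gene and a change in RNA per cell cannot be told apart.

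**Figure D1:**
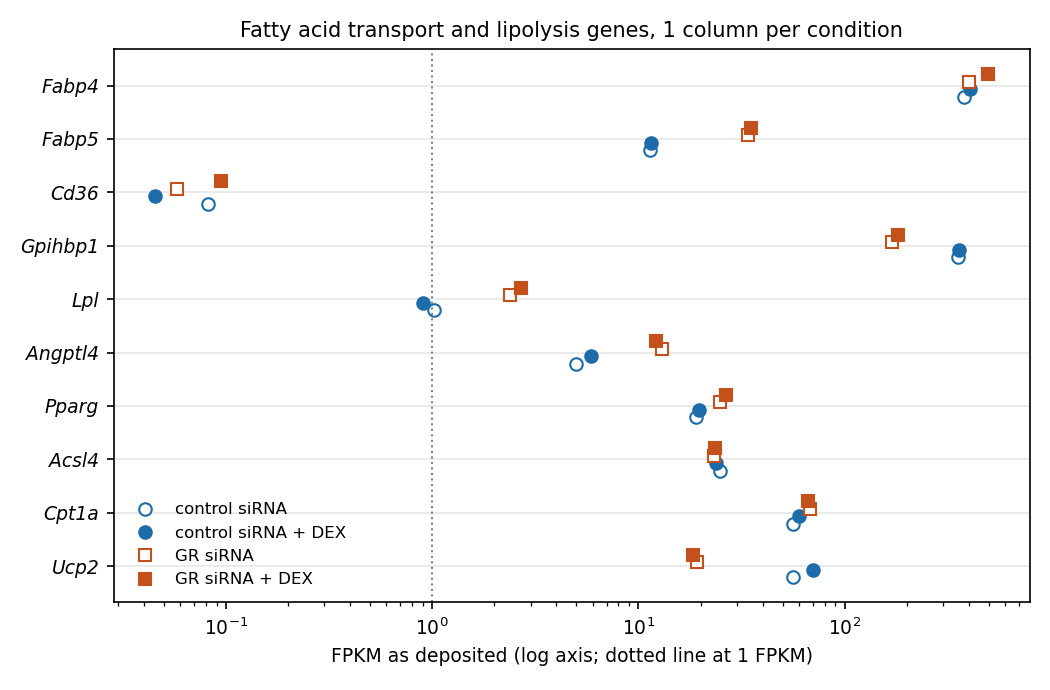
Deposited FPKM (log axis) of the 10 genes, with a point for each condition: control siRNA as circles, GR siRNA as squares, DEX-treated cells filled and the rest open, and the dotted line marks 1 FPKM. Squares lie to the right of circles for Fabp5, Lpl and Angptl4 and to the left for Gpihbp1 and Ucp2, and Cd36, with 10 estimated fragments or fewer in each column, stays below 0.1 FPKM.

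Fabp4 and Fabp5 encode cytosolic carriers of fatty acids and lie near each other on chromosome 3, Fabp5 at 10012548 to 10016607 on the plus strand and Fabp4 at 10204088 to 10208576 on the minus strand (mm10). They behaved differently. Fabp4 was the most abundant of the 10 genes in every column, at 377 FPKM with control siRNA, 407 FPKM with control siRNA + DEX, 400.4 FPKM with GR siRNA alone and 496 FPKM with GR siRNA + DEX. The last of these columns was the highest, at 1.24 times the GR siRNA column (counting interval 1.21 to 1.27) and 1.22 times the control siRNA + DEX column (1.19 to 1.246). Fabp5 was 11.4 FPKM with control siRNA, 11.5 FPKM with control siRNA + DEX, 34.0 FPKM with GR siRNA alone and 35.0 FPKM with GR siRNA + DEX. Both GR siRNA columns lay above both control siRNA columns, and DEX made little difference in either arm. The ratio of GR siRNA to control siRNA was 2.99 without DEX (counting interval 2.66 to 3.37) and 3.05 with DEX (2.75 to 3.39), on an estimated 342 to 1522 fragments. Fabp4 thus stood 33.1 and 35.5 times above Fabp5 per transcript length in the control siRNA columns, and 11.8 and 14.2 times above it in the GR siRNA columns. For Fabp5, 9.27% of the 31-mers of its transcripts occur in other genes, most of them in Gm6166, which has no value under that symbol in the deposited data. That figure was 0.288% for Fabp4.

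Most relatives of these carriers were silent, and the one other Fabp gene above 1 FPKM was higher with GR siRNA, as Fabp5 was. Of 9 further genes listed with the binding proteins, Fabp1, Fabp2, Fabp6 and Fabp12 were listed at 0 in all 4 columns, and Fabp7, Pmp2 and Fabp9 stayed below 1 FPKM. Fabp3, the form known from heart and muscle (chromosome 4, 130308595 to 130315463), was 1.13 FPKM with control siRNA, 1.12 FPKM with control siRNA + DEX, 3.16 FPKM with GR siRNA alone and 3.26 FPKM with GR siRNA + DEX. Its log2 differences for GR siRNA were 0.96 without DEX and 1.003 with DEX, on an estimated 27 to 112 fragments. Dbi, the acyl-CoA binding protein, was abundant at 164 to 201 FPKM and differed by 0.14 and 0.23.

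Uptake at the cell surface had a gap at Cd36, the best known fatty acid receptor of capillaries (chromosome 5, 17781690 to 17888801). Its level was 0.0815 FPKM with control siRNA, 0.0455 FPKM with control siRNA + DEX, 0.0576 FPKM with GR siRNA alone and 0.0944 FPKM with GR siRNA + DEX. These values rest on an estimated 7, 6, 8 and 10 fragments, and each of the 4 ratios between columns had a counting interval that included 1, so no difference was detectable at this depth. Meox2 and Tcf15, transcription factors known to act together on Cd36 and Fabp4 in heart endothelium, were also low: Meox2 was 0.0502 FPKM or less in every column, and Tcf15 was 0.43 and 0.40 FPKM in the control siRNA columns and 0.14 and 0.0592 FPKM in the GR siRNA columns.

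Other entry routes were expressed. Of 11 listed transporter and caveola genes in the table, 7 reached 1 FPKM for GR siRNA without DEX and 5 of these were higher and 2 lower, 1 of them past 1.5-fold, with the same counts in the comparison with DEX. The list medians were 0.28 and 0.16. The structural caveola genes Cav1 and Cav2 were abundant, at 315 to 350 FPKM and 135 to 162 FPKM, and Got2, a mitochondrial enzyme also found at the plasma membrane as a fatty acid binding protein, was 78.5 to 85.3 FPKM. Slc27a1, which encodes the fatty acid transport protein FATP1, led its family at 62.3 FPKM with control siRNA, 64.6 FPKM with control siRNA + DEX, 75.9 FPKM with GR siRNA alone and 72.2 FPKM with GR siRNA + DEX. The gene past 1.5-fold was Mfsd2a, a transporter of lysophospholipids that carry long-chain fatty acids. It was 2.70 and 2.38 FPKM in the control siRNA columns and 4.93 and 4.74 FPKM in the GR siRNA columns, with log2 differences of 0.68 and 0.76.

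At the step of lipolysis, the anchor of lipoprotein lipase was lower with GR siRNA while the enzyme and its inhibitor were higher. Gpihbp1 (chromosome 15, 75596628 to 75599481, plus strand) was 353 FPKM with control siRNA, 357 FPKM with control siRNA + DEX, 169 FPKM with GR siRNA alone and 181 FPKM with GR siRNA + DEX. Both GR siRNA columns lay below both control siRNA columns, at 0.48 times the control siRNA level without DEX (counting interval 0.464 to 0.496) and 0.506 times with DEX (0.49 to 0.523). Even so, it remained the second most abundant of the 10 genes in every column. None of its 31-mers occurs in another annotated gene.

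Lpl (chromosome 8, 68880491 to 68907448, plus strand) was scarce, at 1.02 FPKM with control siRNA, 0.898 FPKM with control siRNA + DEX, 2.38 FPKM with GR siRNA alone and 2.70 FPKM with GR siRNA + DEX. The ratio of GR siRNA to control siRNA was 2.34 without DEX (counting interval 1.95 to 2.82) and 3.01 with DEX (2.54 to 3.57), on an estimated 152 to 530 fragments. The addition of 1 FPKM before the logarithm shrinks such a low gene: the log2 differences were 0.75 and 0.96. Angptl4 (chromosome 17, 33773750 to 33781830, minus strand), the inhibitor, was 4.98 FPKM with control siRNA, 5.91 FPKM with control siRNA + DEX, 12.9 FPKM with GR siRNA alone and 12.2 FPKM with GR siRNA + DEX. Its ratio was 2.60 without DEX (counting interval 2.37 to 2.85) and 2.06 with DEX (1.90 to 2.22). Both genes were higher in both GR siRNA columns than in either control siRNA column. Lpl and Angptl4 were higher together, and the level of Angptl4 relative to Lpl per transcript length was 4.90 and 6.59 in the control siRNA columns and 5.44 and 4.50 in the GR siRNA columns. Gpihbp1 relative to Lpl was 347 and 397 against 71.1 and 66.9, and Gpihbp1 relative to Angptl4 was 70.8 and 60.3 against 13.1 and 14.9.

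The other measured genes around lipoprotein lipolysis stayed inside 1.5-fold, as most genes of any kind did. In the list of extracellular lipases and their regulators, 5 genes were measured, with 3 higher and 2 lower in each DEX state, none past 1.5-fold, and medians of 0.10 and 0.20. Lmf1, a chaperone needed to fold lipoprotein lipase, was 6.46 and 7.06 FPKM in the control siRNA columns and 9.18 and 8.71 FPKM in the GR siRNA columns (log2 differences 0.45 and 0.27). Its partner Sel1l was 22.8 to 25.9 FPKM, and Furin, a protease that cuts both lipoprotein lipase and ANGPTL4, was 71.5 to 86.2 FPKM. Of 5 measured lipoprotein receptors none passed 1.5-fold, with medians of 0.21 and 0.14. Past 1.5-fold were 2.36% of all genes upward and 2.54% downward without DEX, and 2.36% and 2.62% with DEX. Such counts among 5 genes are near the background and say nothing particular about these lists. Scarb1, a receptor for high-density lipoprotein, was 23.7 and 22.6 FPKM in the control siRNA columns and 18.6 and 18.3 FPKM in the GR siRNA columns (log2 differences −0.33 and −0.29). Acvrl1, which can bind low-density lipoprotein, was 220.4 to 228 FPKM.

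**Figure D2:**
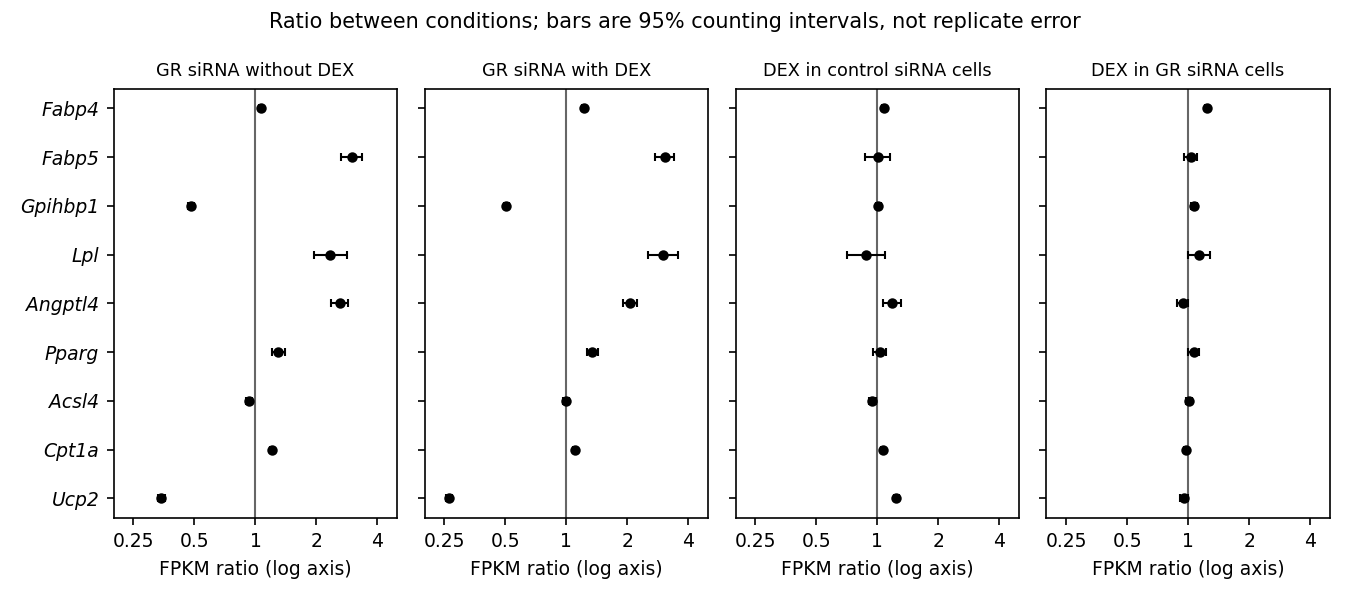
FPKM ratio between conditions (log axis) for the 9 genes of at least 1 FPKM, 1 panel per comparison; bars are 95% counting intervals from the estimated fragments and do not include the spread between cultures. With GR siRNA the points of Fabp5, Lpl and Angptl4 lie between 2.06 and 3.05 and those of Gpihbp1 and Ucp2 between 0.264 and 0.506, while in the 2 DEX panels all points lie between 0.884 and 1.24.

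Pparg (chromosome 6, 115360951 to 115490399, plus strand) was moderately expressed and somewhat higher with GR siRNA. It was 19.1 FPKM with control siRNA, 19.7 FPKM with control siRNA + DEX, 24.8 FPKM with GR siRNA alone and 26.5 FPKM with GR siRNA + DEX. The ratios of 1.30 (counting interval 1.21 to 1.40) and 1.35 (1.26 to 1.44) were beyond counting error and inside 1.5-fold. The related receptor Ppard went the other way, at 34.0 and 33.4 FPKM in the control siRNA columns against 23.1 and 20.8 FPKM in the GR siRNA columns (log2 differences −0.54 and −0.66), and Ppara was near 0, at 0.00499 FPKM or less. Of 10 measured genes in the list of PPAR factors, partners and endothelial lipid regulators, 1 was past 1.5-fold higher in each state and 1 was lower with DEX, Ppard. The higher one was Nrp1, a receptor for VEGF-B, a ligand known to promote endothelial fatty acid uptake, at 12.1 and 12.5 FPKM against 23.5 and 22.3 FPKM. Vegfb itself was 34.6 to 40.3 FPKM, and its other receptor Flt1 64.6 to 78.9 FPKM. Other genes known to respond to PPARs lay on both sides of 0. Of 8 measured, 5 were higher and 3 lower in each state, with medians of 0.04 and 0.02. None was past 1.5-fold, as few genes of any kind were. This list leaves out the 10 genes described here, many of which PPAR gamma also switches on. Of those 10, 3 were higher and 2 lower past 1.5-fold in each state, so the list does not stand for all PPAR-responsive genes. Plin2, a lipid droplet coat protein and a widely used PPAR readout, was 64.9 to 66.9 FPKM and Txnip was 81.3 to 100.2 FPKM.

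Of the genes for activation and mitochondrial entry, Acsl4 differed little between the columns and Cpt1a was somewhat higher with GR siRNA. Acsl4 (X chromosome, 142317993 to 142390535), an acyl-CoA synthetase with a preference for arachidonic acid, was 25.0 FPKM with control siRNA, 23.6 FPKM with control siRNA + DEX, 23.2 FPKM with GR siRNA alone and 23.5 FPKM with GR siRNA + DEX. Its ratio for GR siRNA was 0.931 without DEX (counting interval 0.897 to 0.967) and 0.995 with DEX (0.959 to 1.03), the smallest differences with DEX of the 9 genes. Another synthetase, Acsl5, was 4.62 to 5.06 times as abundant as Acsl4 per transcript length, at 113 to 119 FPKM. Cpt1a (chromosome 19, 3322334 to 3385733), which controls the entry of fatty acids into mitochondria, was 56.2 FPKM with control siRNA, 60.0 FPKM with control siRNA + DEX, 67.8 FPKM with GR siRNA alone and 66.2 FPKM with GR siRNA + DEX. Both GR siRNA columns were above both control siRNA columns, by ratios of 1.21 (counting interval 1.18 to 1.24) and 1.10 (1.08 to 1.13).

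All 23 listed genes of fatty acid oxidation were measured, and most lay inside 1.5-fold, as most genes of any kind did. With GR siRNA 17 were higher and 6 lower without DEX, none past 1.5-fold, and 16 were higher and 7 lower with DEX, 1 of them past 1.5-fold. The medians were 0.05 and 0.11, against −0.01 for all genes in each case. With equal column sums the median of all genes moved to 0.05 and 0.01, so differences of this size depend on the scaling. Past 1.5-fold were 2.36% of all genes upward and 2.54% downward without DEX, and 2.36% and 2.62% with DEX. Nothing particular to the lists of this paragraph is read from their counts. The gene past the threshold was Hadh, a dehydrogenase of short-chain substrates, at 39.0 and 39.8 FPKM in the control siRNA columns and 27.9 and 24.9 FPKM in the GR siRNA columns. Etfb, an electron carrier that takes electrons from the acyl-CoA dehydrogenases, was 60.0 and 66.7 FPKM against 74.4 and 78.5 FPKM, and Hadhb, a subunit of the trifunctional protein, was 51.5 to 57.0 FPKM. Of 8 measured acyl-CoA synthetases and thioesterases, 1 was higher past 1.5-fold in each state and 1 was lower without DEX. The higher gene was Acot2 without DEX (2.98 against 5.11 FPKM) and Acss2 with DEX (0.456 against 1.34 FPKM, so that it passed the filter only through the GR siRNA + DEX column), and the lower one was Acot13 (34.3 against 21.5 FPKM). Intracellular lipolysis and lipid droplet genes had medians of 0.04 and −0.02 over 9 genes, none past 1.5-fold, with the lysosomal lipase Lipa at 79.3 to 92.2 FPKM.

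Ucp2 (chromosome 7, 100493337 to 100502020, plus strand) differed more than any other of the 10 genes with DEX in both arms. It was 56.2 FPKM with control siRNA, 69.9 FPKM with control siRNA + DEX, 19.3 FPKM with GR siRNA alone and 18.4 FPKM with GR siRNA + DEX. Both GR siRNA columns lay far below both control siRNA columns, at 0.343 times without DEX (counting interval 0.331 to 0.356) and 0.264 times with DEX (0.254 to 0.274). The 2 mitochondrial genes Ucp2 and Cpt1a stood level with control siRNA, at a ratio of 0.9999, and at 1.16 with control siRNA + DEX, and the ratio was 0.284 and 0.278 in the GR siRNA columns. The related genes Ucp1 and Ucp3 were below 0.1 FPKM throughout. The abundant adenine nucleotide carriers Slc25a4 and Slc25a5 of the same membrane stood at 331 to 403 FPKM and 325 to 357 FPKM. The 4 measured genes of the list had medians of −0.16 and −0.11, none past 1.5-fold, as few genes of any kind were. Ucp2 overlaps Dnajb13 on the opposite strand, and 3.86% of its 31-mers occur there. Dnajb13 itself was 0.252 to 0.499 FPKM. Pparg likewise overlaps an antisense transcript, Gm44079, which has no value under that symbol in the deposited data. Without a stated strand setting, reads of such pairs cannot be told apart.

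Promoters are shown for 3 genes that lay on opposite sides of 0: Ucp2 was lower, and Pparg and Cpt1a were somewhat higher. RefSeq windows (GRCm38.p6) from 250 bases before to 50 after a start site were available for 5 of the 10 genes, Acsl4, Cd36, Cpt1a, Pparg and Ucp2, with 7 windows because Pparg has 3. The windows of Acsl4 and of the most downstream Pparg start held none of the motifs searched and, like those of Cd36 and the other Pparg start, are not printed. The 3 printed 5′ to 3′ on the gene's strand are Ucp2 at chr7:100493108-100493407 (plus), Cpt1a at chr19:3323051-3323350 (plus) and the most upstream start of Pparg at chr6:115360894-115361193 (plus). Capitals mark TCACNCCAC, a core of sterol response elements, in Ucp2, and AGGTCA, the short core bound by many nuclear receptors, on either strand, in Cpt1a and Pparg.
Ucp2: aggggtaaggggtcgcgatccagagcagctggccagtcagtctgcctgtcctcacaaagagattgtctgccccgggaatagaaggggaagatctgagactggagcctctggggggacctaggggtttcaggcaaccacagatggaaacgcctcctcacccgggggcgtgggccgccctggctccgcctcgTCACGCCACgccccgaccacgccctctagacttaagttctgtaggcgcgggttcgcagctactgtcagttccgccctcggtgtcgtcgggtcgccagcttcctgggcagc
Cpt1a: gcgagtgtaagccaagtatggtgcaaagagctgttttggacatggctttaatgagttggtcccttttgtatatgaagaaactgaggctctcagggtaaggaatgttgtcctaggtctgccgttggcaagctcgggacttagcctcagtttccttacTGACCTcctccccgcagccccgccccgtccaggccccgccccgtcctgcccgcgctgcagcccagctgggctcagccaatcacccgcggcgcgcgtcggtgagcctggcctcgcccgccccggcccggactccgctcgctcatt
Pparg: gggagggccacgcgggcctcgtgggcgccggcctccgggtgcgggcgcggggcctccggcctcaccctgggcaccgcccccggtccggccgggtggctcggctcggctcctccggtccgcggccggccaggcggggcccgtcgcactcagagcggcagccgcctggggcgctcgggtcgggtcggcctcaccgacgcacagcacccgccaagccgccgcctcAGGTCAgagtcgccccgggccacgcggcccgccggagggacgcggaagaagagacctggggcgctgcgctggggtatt

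Both strands of each window were searched for 5 motifs. The palindrome of GR, GNACANNNTGTNC, and the short core AGAACA, which can overlap it, were in none of the 7 windows. Of all 32851 windows, 0.475% hold the palindrome and 19.0% the core. AGGTCA was in 4 of the 7 windows, which belong to 3 of the 5 genes (Cd36, Cpt1a and 2 starts of Pparg), against 16.3% of all windows; starts of 1 gene are not independent, and no excess is read from this count. The longer AGGTCANAGGTCA, the direct repeat bound by PPAR with its partner RXR, which holds that core at each end, was in none, against 0.0396% of all. TCACNCCAC was in the Ucp2 window alone, against 1.24% of all. These matches are letters in short windows and carry no measurement of binding.

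With DEX as the contrast, no measured gene passed 1.5-fold, in a comparison where few genes of any kind did. In control siRNA cells 0 of 9 measured genes were higher and 0 lower, where 0.686% and 0.392% of all 11227 genes were. In GR siRNA cells the counts were again 0 and 0, where 0.531% and 0.645% of 11310 genes were higher and lower. With shares this low, counts of 0 among 9 genes are near the background and say nothing particular about them, and Cd36 was too low to compare. In control siRNA cells the largest differences were those of Ucp2, 1.24 times higher with DEX (counting interval 1.21 to 1.28), and Angptl4, 1.19 times higher (1.07 to 1.32). In GR siRNA cells the same 2 genes were at 0.956 times (0.913 to 1.002) and 0.939 times (0.882 to 1.0002) the level without DEX, and Fabp4 had the largest difference, the 1.24 given above. The difference between the 2 DEX effects was −0.37 for Ucp2 and −0.29 for Angptl4 on the log2(FPKM + 1) scale. None of 9 genes passed 1.5-fold on this measure in either direction, where 0.751% of 11445 genes were past it upward and 0.961% downward, so this count too is near the background. The DEX and GR siRNA comparisons share columns: the control siRNA + DEX column, in which Ucp2 was highest, enters both.

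**Figure D3:**
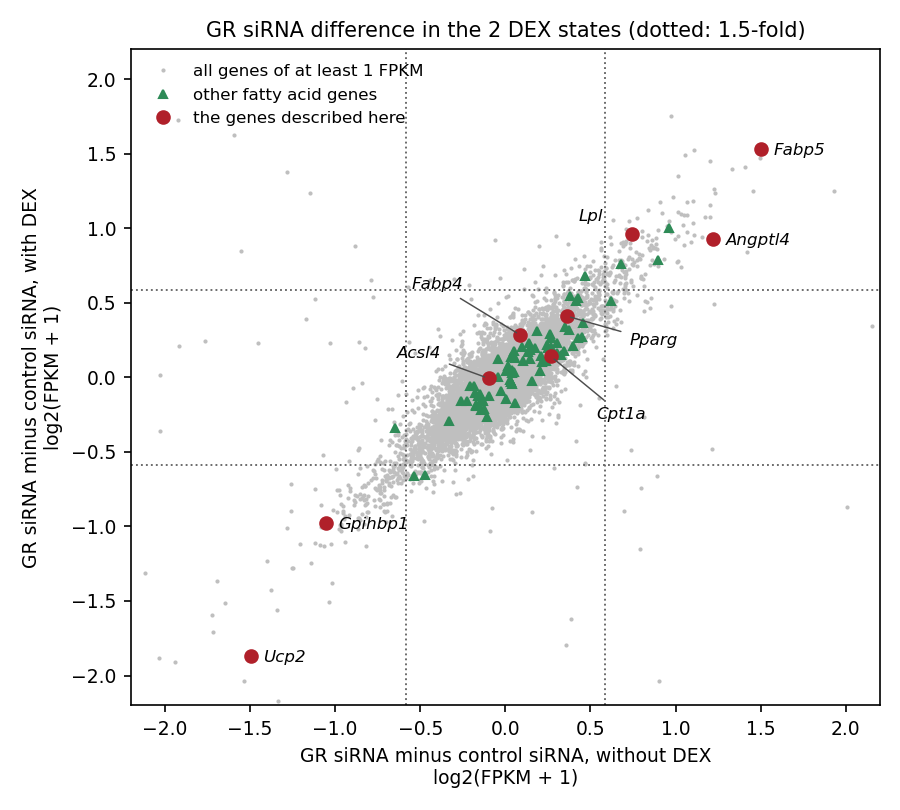
Difference of GR siRNA minus control siRNA in log2(FPKM + 1) without DEX (horizontal) and with DEX (vertical), for the 9 measured genes (large circles), other fatty acid genes (triangles) and all genes of at least 1 FPKM in both comparisons (dots); dotted lines mark 1.5-fold, and 67 of 11224 genes lie outside the axes. Fabp5 sits at 1.5 and 1.53, Angptl4 at 1.22 and 0.93, Lpl at 0.75 and 0.96, Gpihbp1 at −1.06 and −0.98 and Ucp2 at −1.49 and −1.87, and most triangles lie inside the dotted square.

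The wider set of fatty acid genes gives the setting for these values. Of 121 other genes listed, 119 were in the table and 74 reached 1 FPKM for GR siRNA without DEX. Among these, 4 were higher past 1.5-fold, namely Fabp3, Mfsd2a, Acot2 and Nrp1, and 1 was lower, Acot13, against 2.36% and 2.54% of all genes. With DEX 4 of 74 were higher, namely Fabp3, Mfsd2a, Acss2 and Nrp1, of which Acss2 passed the filter only through the GR siRNA + DEX column. In the same comparison 2 were lower, Hadh and Ppard, and the shares of all genes were 2.36% and 2.62%. The 4 of 74 higher genes are a larger share than that of all genes in each state, and the lower genes are not. The counts are small and the lists were chosen with earlier results known, so nothing particular to the lists is read from them. The medians over the 74 genes were 0.08 and 0.11, against −0.01 for all genes in each case. With DEX treatment as the contrast, 0 of 73 and 0 of 74 genes passed 1.5-fold in control siRNA and GR siRNA cells. Counts of 0 are near the shares of all genes given for DEX.

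**Figure D4:**
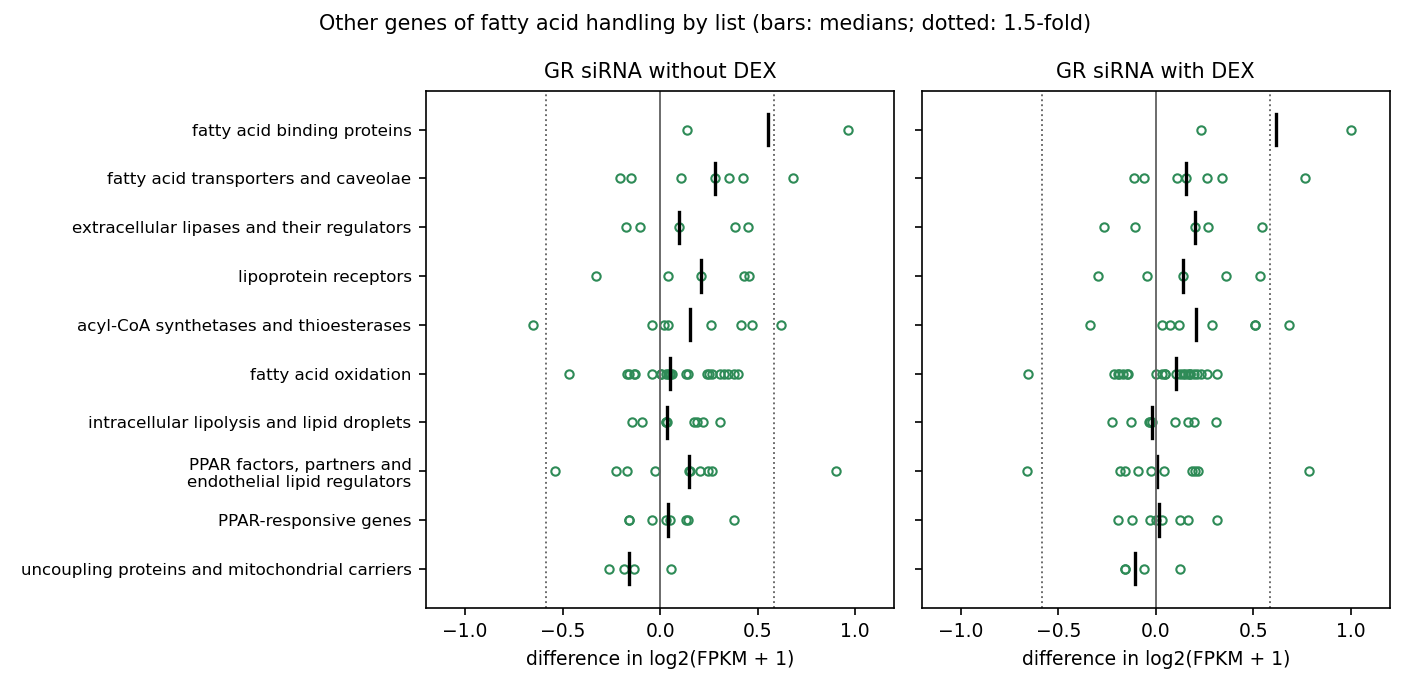
Difference of GR siRNA minus control siRNA in log2(FPKM + 1) for the other fatty acid genes of at least 1 FPKM, 1 circle per gene and 1 row per list, without DEX (left) and with DEX (right); bars are list medians and dotted lines mark 1.5-fold. Most circles lie inside the dotted lines, as most genes of any kind do, and the 23 oxidation genes centre on 0.05 and 0.11.

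The genes closest to each member in profile were found among genes of at least 5 FPKM in a column, as the smallest distance between log2(FPKM + 1) values over the 4 columns, each gene centred on its mean. For Fabp5 they were Slc12a8 (distance 0.169), Tmem37 (0.201) and Scd1 (0.262), with GR siRNA differences without DEX of 1.33, 1.45 and 1.204. For Angptl4 they were Pltp, which encodes a phospholipid transfer protein of plasma (0.0971), the thromboxane receptor gene Tbxa2r (0.0994) and the collagen gene Col8a1 (0.113). Pltp was 50.2 and 57.4 FPKM in the control siRNA columns and 109 and 112 FPKM in the GR siRNA columns. For Lpl they were Ehd3 (0.0595), Cryab (0.0617) and Qpct (0.0875). The 1 FPKM added before the logarithm shrinks Lpl more than these more abundant genes, so which genes lie nearest to it may depend on that setting. On the lower side, Gpihbp1 was closest to Ifit1 (0.0705), Mpp3 (0.0777) and Serinc3 (0.0798), and Ucp2 to Rgcc (0.242), Wdr92 (0.272) and Thrsp (0.337). With 4 columns many genes share any such profile. Among the genes compared, which leave out predicted genes, clone names and small RNAs, Fabp5 and Ucp2 had none closer than 0.169 and 0.242.

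Markers of other cells that use these genes were measured beside them. Adipocytes and macrophages express Fabp4, Lpl and Pparg strongly. Of the markers in the table, 6 of 7 for adipocytes and 6 of 7 for macrophages and leukocytes were below 1 FPKM in every column. Lep, Cfd and Retn were listed at 0 in all columns, and Adipoq was 0.0628 FPKM or less. The leukocyte marker Ptprc and the macrophage receptor Marco were listed at 0. The summed level of the 7 adipocyte markers was 2.35 to 2.68 FPKM, of which Lipe gave 2.33 to 2.63 FPKM. The 7 macrophage and leukocyte markers in the table summed to 161 to 219 FPKM through Cd68, a lysosomal protein, while the other 6 were at 0.366 FPKM or less. Cd68 was 176 and 161 FPKM in the control siRNA columns and 194 and 218 FPKM in the GR siRNA columns (log2 differences 0.13 and 0.44). The part of macrophages in the values described here was not tested. The 7 lung epithelial markers summed to 3.95 to 4.59 FPKM. Fibroblast and mural cell markers were low, with 7 of 9 below 1 FPKM in every column. Their sum moved with the genes that were higher with GR siRNA. Most of that sum was Acta2, which stayed inside 1.5-fold (log2 differences 0.56 and 0.40). The 9 markers summed to 6.64 and 6.41 FPKM in the control siRNA columns and 12.3 and 11.5 FPKM in the GR siRNA columns, with Acta2 at 5.65 and 5.60 against 8.82 and 7.71 FPKM and Dcn at 0.387 and 0.297 against 1.99 and 2.73 FPKM. The part of such cells in the values of Lpl, Angptl4, Fabp5 and Fabp3 was not tested. Of the 5 lymphatic markers, Lyve1 (373 and 348 against 191 and 192 FPKM) and Flt4 were lower along with Gpihbp1 and Ucp2. Through these genes the 5 summed to 401 and 375 FPKM against 211 and 210.3 FPKM. Prox1, which defines lymphatic cells, was 0.12 to 0.18 FPKM, and Pdpn and Reln were 0.027 FPKM or less. The part of lymphatic cells was not tested either.

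siRNAs are known to be able to lower other mRNAs through short matches in the 3′ untranslated region. The 7-mers TTCTGAA and TCTGAAA, singled out in earlier work on this table, were looked for in the longest annotated region of each gene. Of the 10 genes, Fabp4, Cd36 and Angptl4 hold one of them. Gpihbp1 and Ucp2, the genes that were lower, hold neither. Of genes of at least 1 FPKM with such a region of 50 nt or more, 10304 were compared without DEX and 10310 with DEX. In each set 32.3% hold one. The median difference of those genes with GR siRNA was −0.06 without DEX and −0.05 with DEX, against 0.01 and 0.01 for genes that hold neither. Of the genes that hold one, 3.07% were lower past 1.5-fold without DEX and 3.10% with DEX, against 1.66% and 1.47% of genes that hold neither. Because the 7-mers were singled out in this same table, that choice may have set these contrasts in advance. They are not a separate test, and nothing is read from them. The sequence of the siRNA was not used, and its part in these values was not tested.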

How the data were processed

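RNA sequencing of 4 samples, 1 per condition, was used as 1 table of 23997 genes. The deposited values are FPKM per gene, made by the authors with TopHat2 and Cuffdiff on mm10, per the submitters' processing notes; their versions, the annotation, the strand setting and how replicates were combined were not given in the sources used here. Deposited FPKM keep no counts, and reads shared by similar genes are divided by an estimate.

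Here, a gene entered a comparison if either column reached 1 FPKM, and differences were taken on log2(FPKM + 1). With 1 column per condition there is no test. The members and the 10 pathway and 6 marker lists were chosen with earlier results of these data known. The text names every member, list genes past 1.5-fold in both GR siRNA comparisons, the 3 most abundant others per list, markers, and the 3 nearest profiles; Meox2, Tcf15, Slc27a1, Ppara, Hadh, Acot2, Acot13, Acss2, Ucp1, Ucp3, silent Fabp genes and Dnajb13 were named after their values were seen, and predicted genes, clone names and small RNAs were left out of the nearest profiles. Some genes this rule names are not reported here.

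Fragments were estimated from the FPKM steps, with transcript length less 200 nt, using the shortest principal transcript of GENCODE M21; this estimate was added after the data were seen. Tools were python 3.11.15, pandas 2.3.3 and scipy 1.17.1. The steps were tested on simulated data.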

Additional observations from a re-analysis of the deposited data

Results flagged for a closer look

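For 5 genes the DEX difference had one sign in control siRNA cells and the other in GR siRNA cells. With 1 column per condition this was not tested, and near-0 differences take opposite signs easily. The difference in GR siRNA cells minus that in control siRNA cells, in log2(FPKM + 1), was −0.37 for Ucp2 (0.31 in control siRNA cells and −0.06 in GR siRNA cells) and −0.29 for Angptl4 (0.21 and −0.08). It was 0.22 for Lpl (−0.09 and 0.13), −0.13 for Cpt1a (0.09 and −0.03) and 0.092 for Acsl4 (−0.07 and 0.02).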

How the results depend on the processing

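Other pseudocounts (0.1 and 0.5), upper quartile rescaling, equal column sums, filters of 5 FPKM or none, and thresholds looser and stricter than 1.5-fold (the stricter at 2-fold) were tried. At 2-fold, 2 genes (Fabp5 and Ucp2) rather than 5 were past the threshold for GR siRNA with DEX, with Gpihbp1 at −0.98, Lpl at 0.96 and Angptl4 at 0.93 in log2(FPKM + 1), while 4 of 5 were without DEX. With a pseudocount of 0.1 Lpl and Angptl4 lay past 2-fold there, at 1.49 and 1.03, so their place depends on the added 1 FPKM as well as on the threshold. At the looser threshold, 1 gene (Ucp2) rather than 0 was past it for the difference between the DEX effects. Every other count was within 1.5 times of the one reported. Of 180 member values recomputed under the pseudocounts and rescalings, 0 changed side of 1.5-fold, and 5 changed sign, all of Acsl4 or Fabp5 and of size 0.0314 or less. The smaller pseudocount of 0.1 gave Lpl a GR siRNA difference of 1.15 without DEX. No paired analysis was possible because each condition has 1 column, and for the same reason no replicate could be left out. Depth limits Cd36 most, with 6 to 10 estimated fragments.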
